A study of Mus musculus with 26 samples.

Results

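Fatty acid uptake and binding genes were followed through astrocyte RNA of the mouse retina and optic nerve. The set holds 9 genes out of 54532 in the deposited count table. They were listed by symbol with no cut on their values, but with earlier results of these data known. They are the surface proteins and transporters Cd36, Slc27a1 and Mfsd2a, the secreted lipase Lpl and the cytosolic carriers Fabp3, Fabp5 and Fabp7. The others are the mitochondrial gate Cpt1a and the lipid droplet coat protein Plin2. All 9 were found by their Ensembl identifiers, and 8 of them passed the low-count filter among the retinal libraries, while all 9 passed it among the immunoprecipitated libraries.

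Cells obtain long-chain fatty acids from lipoproteins, whose triglycerides lipoprotein lipase cuts at the cell surface, or from albumin-bound and lysophospholipid-bound pools. CD36 and fatty acid transport proteins move them across the membrane, binding proteins of the FABP family carry them in the cytosol, and they are then stored in droplets or passed into mitochondria through carnitine palmitoyltransferase 1. Astrocytes are the cells of nervous tissue best known for fatty acid storage and oxidation, and FABP7, the brain type binding protein, is a common marker of astroglia.

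The study immunoprecipitated RNA from astrocytes (IP) of 3 places along the ganglion cell axon: the retina (6 libraries), the optic nerve head, where axons leave the eye (ONH, 7 libraries), and the myelinated nerve behind it, called the optic nerve proper (ONP, 7 libraries). A further 6 libraries held retinal input RNA from before the pull-down, and no input was analysed for the nerve. All 26 libraries came from untreated mice at day 0. Strain, age, the genotype or tag used for the pull-down and the number of animals per library are not given in the sources used here, so a p-value here weighs a difference against the scatter among these libraries, which may be technical. All 12 retinal libraries were in batch 2, and replicates 1 to 6 of each nerve group were in batch 1. Replicate 7 of ONH and of ONP were sequenced beside the retinal libraries to control for batch. The comparisons between retina and nerve rest on these bridging libraries.

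Library totals ran from 11164619 to 27431026 counts. The summed level of 10 astrocyte markers was 6750 to 35100 CPM (counts scaled to library size) in the retinal IP libraries, 4040 to 6650 in retinal input, 7170 to 34400 in ONH and 12800 to 41400 in ONP. By group mean, the largest single marker was Aldoc in both retinal groups and Gfap in both nerve groups. Retinal IP replicates 2, 3 and 4 stood above the others with 20500, 30500 and 35100, against 6750, 7670 and 9740 in replicates 1, 5 and 6. The lowest astrocyte sums of ONH and ONP, 7170 and 12800 CPM, were those of the bridging libraries. In ONH replicate 7 the summed level of 9 rod photoreceptor markers was 51200 CPM, against 104 to 926 in the other 6 ONH libraries. In ONP replicate 7 that sum was 702 CPM, against 30.8 to 115 in the other ONP libraries. In input replicates 1 and 2, Fabp3 and Fabp5 stood far above the other inputs. Fabp7 and Lpl were also highest in them, and Slc27a1 and Cpt1a lowest. Calls on the 9 genes that these libraries decide are given with and without them.

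Among the 9 genes, Cd36, Fabp7 and Mfsd2a had the largest differences between retina and ONP. For that reason the 250 bases before their RefSeq transcription starts (build GRCm38.p6) are shown here, read 5′ to 3′ on the strand of each gene, with 5 motifs in capitals on either strand: the nuclear receptor motif AGGTCA, the GC box GGGCGG, the CCAAT box, the E-box CACGTG and the TATA box TATAAA. The Cd36 window lies at chr5:17835897-17836146 on the minus strand, the Fabp7 window at chr10:57784673-57784922 on the plus strand and the Mfsd2a window at chr4:122961189-122961438 on the minus strand.
Cd36: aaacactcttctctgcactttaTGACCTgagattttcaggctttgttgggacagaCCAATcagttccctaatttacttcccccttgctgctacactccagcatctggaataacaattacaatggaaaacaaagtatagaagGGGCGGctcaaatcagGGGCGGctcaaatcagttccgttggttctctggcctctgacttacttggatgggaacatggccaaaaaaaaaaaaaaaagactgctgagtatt
Fabp7: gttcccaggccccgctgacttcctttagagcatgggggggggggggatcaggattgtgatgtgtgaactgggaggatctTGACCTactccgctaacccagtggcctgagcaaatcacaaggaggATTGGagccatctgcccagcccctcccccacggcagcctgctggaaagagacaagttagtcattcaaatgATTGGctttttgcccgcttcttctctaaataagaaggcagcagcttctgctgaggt
Mfsd2a: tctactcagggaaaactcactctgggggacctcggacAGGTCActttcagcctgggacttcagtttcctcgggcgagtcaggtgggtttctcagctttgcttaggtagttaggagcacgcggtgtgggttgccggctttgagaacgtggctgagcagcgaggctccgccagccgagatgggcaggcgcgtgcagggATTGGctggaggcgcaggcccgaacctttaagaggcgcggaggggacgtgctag
Each of the 3 windows holds 1 AGGTCA motif, found in 14% of 32851 mouse promoter windows of the same length, and at least 1 CCAAT box, found in 33.8%. Among the other members with a window, Plin2 and Cpt1a also hold 1 AGGTCA motif, and Fabp3 and Slc27a1 hold none. Cd36 alone of the 3 holds GC boxes, 2 of them in a repeated stretch, and that motif occurs in 32.7% of windows. No window of a member holds 2 copies of AGGTCA in a row with 1 free base between, the direct repeat that PPAR and RXR receptors bind, which 0.0335% of windows contain. RefSeq windows matched 7 of the 9 genes, and Fabp5 and Lpl were not among them.

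**Figure D1:**
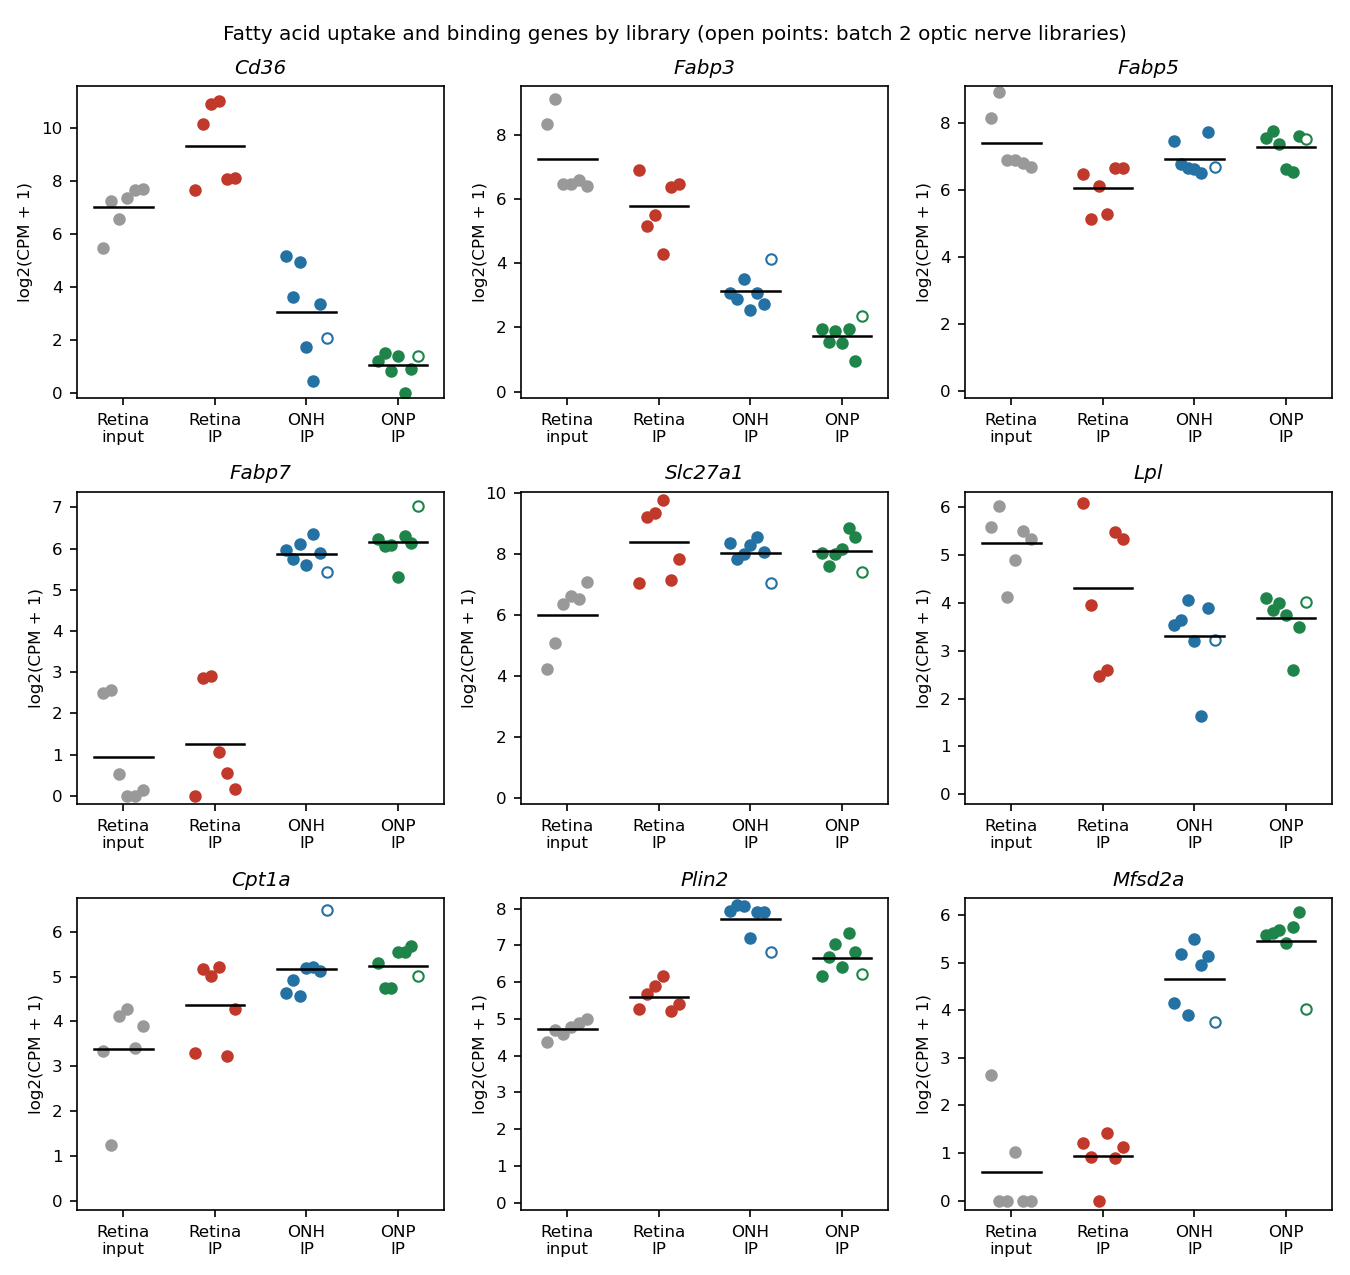
Level of each gene in every library, as log2(CPM + 1) on the vertical axis, for retinal input (6), retinal IP (6), ONH IP (7) and ONP IP (7); bars are group means and open points are the batch 2 nerve libraries. Cd36 falls from 198 to 2080 CPM in retinal IP to at most 1.86 CPM in ONP, and Fabp7 and Mfsd2a show the opposite order.

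Whether the pull-down enriched these transcripts was asked by comparing retinal IP with retinal input. Cd36 (the scavenger receptor that takes up long-chain fatty acids) and Slc27a1 (fatty acid transport protein 1) had the largest positive differences, Plin2 was above input in every library, and Fabp5 was below input in every library. None of the 8 genes tested passed the adjusted threshold in edgeR, in a comparison where 0% of 15181 genes did. At an unadjusted p under 0.05 there were 3 higher and 2 lower, beside 11.7% of all genes higher and 10.4% lower. DESeq2 on the same libraries called those 5 genes, Cd36, Slc27a1 and Plin2 higher and Fabp3 and Fabp5 lower, where it called 6.67% of 14523 genes higher and 7.59% lower, so the calls here depend on the tool.

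In retinal input Cd36 measured 43.3, 151, 92.6, 164, 199 and 207 CPM in replicates 1 to 6, and in retinal IP 198, 1120, 1880, 2080, 268 and 272. IP replicates 2, 3 and 4 were each above every other library of the 2 groups, and replicate 1 lay within the input range. The log2 fold change was 2.89 ± 0.654 (SE) with an edgeR adjusted p of 0.057, and it passed the threshold without IP replicate 1 (3.11, adjusted p = 0.0322) or replicate 5 (3.10, adjusted p = 0.0395). Levels in a bulk library cannot tell apart more cells of a type from more RNA per cell, here and in all comparisons that follow.

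Slc27a1 measured 17.6, 33.1, 81.4, 97.8, 91 and 135 CPM in input and 130, 589, 652, 859, 141 and 229 CPM in IP. The same 3 IP libraries were highest, and IP replicate 1 was just below the highest input library. Input replicates 1 and 2 were the lowest inputs. Relative to the mean of all inputs, IP replicates 1 to 6 were at 1.71, 7.76, 8.59, 11.3, 1.85 and 3.02. Relative to the mean of input replicates 3 to 6 they were at 1.28, 5.82, 6.44, 8.49, 1.39 and 2.27. Its log2 fold change was 2.64 ± 0.595 (SE, adjusted p = 0.057), 2.83 without IP replicate 1 (adjusted p = 0.0323) and 2.83 without replicate 5 (adjusted p = 0.0395). Plin2, which coats cytosolic lipid droplets, measured 19.8 to 31 CPM in input (median 25.7) and 37.5, 50.3, 58.5, 70.8, 36 and 41.2 CPM in IP. All 6 IP libraries were above all 6 input libraries, as for 1.65% of genes tested, and the log2 fold change was 1.04 ± 0.255 (SE, adjusted p = 0.0619), or 1.12 without IP replicate 1 (adjusted p = 0.0472). Cpt1a, the enzyme that commits fatty acids to mitochondrial oxidation, measured 8.87, 35.2, 31.4, 36.1, 8.41 and 18.5 CPM in IP against 1.36 to 18.3 in input. The groups overlapped and the log2 fold change of 1.13 ± 0.539 had an adjusted p of 0.238.

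Among the carriers, Fabp5 (epidermal type) measured 286, 486, 118, 120, 111 and 103 CPM in input and 88.7, 34.5, 68.4, 38.1, 100 and 100 in IP. Input replicates 1 and 2 were far above the rest, and the lowest input library was still above the highest IP library, which 2.9% of genes showed. Fabp3 (heart type) measured 327, 556, 87.1, 88, 96.8 and 84.9 CPM in input and 118, 35, 44.7, 18.4, 83.1 and 87.9 in IP, so its groups overlapped. The log2 fold changes were -1.43 ± 0.438 for Fabp5 (adjusted p = 0.0824) and -1.61 ± 0.564 for Fabp3 (adjusted p = 0.111). Without input replicates 1 and 2 they were -0.63 (adjusted p = 0.192) and -0.45 (adjusted p = 0.518). Both genes were lowest in IP replicates 2 and 4. Lpl measured 16.4 to 63.3 CPM in input and 66.8, 14.5, 4.5, 5.03, 43.1 and 39.2 CPM in IP, and its log2 fold change was -0.41 ± 0.572 (adjusted p = 0.751).

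Fabp7 and Mfsd2a were near the detection limit in both retinal groups. Fabp7 measured 0 to 4.90 CPM in input and 0, 6.28, 6.51, 1.10, 0.461 and 0.130 CPM in IP and was not tested. Mfsd2a, the sodium-dependent carrier that brings docosahexaenoic acid into brain as a lysophospholipid, measured 5.21, 0, 0, 1.03, 0 and 0 CPM in input and 0 to 1.69 CPM in IP. Its fitted log2 fold change of 0.06 ± 1.33 (adjusted p = 0.986) has no stable sign, being 2.30 without input replicate 1 and -0.08 with another scaling of the libraries.

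**Figure D2:**
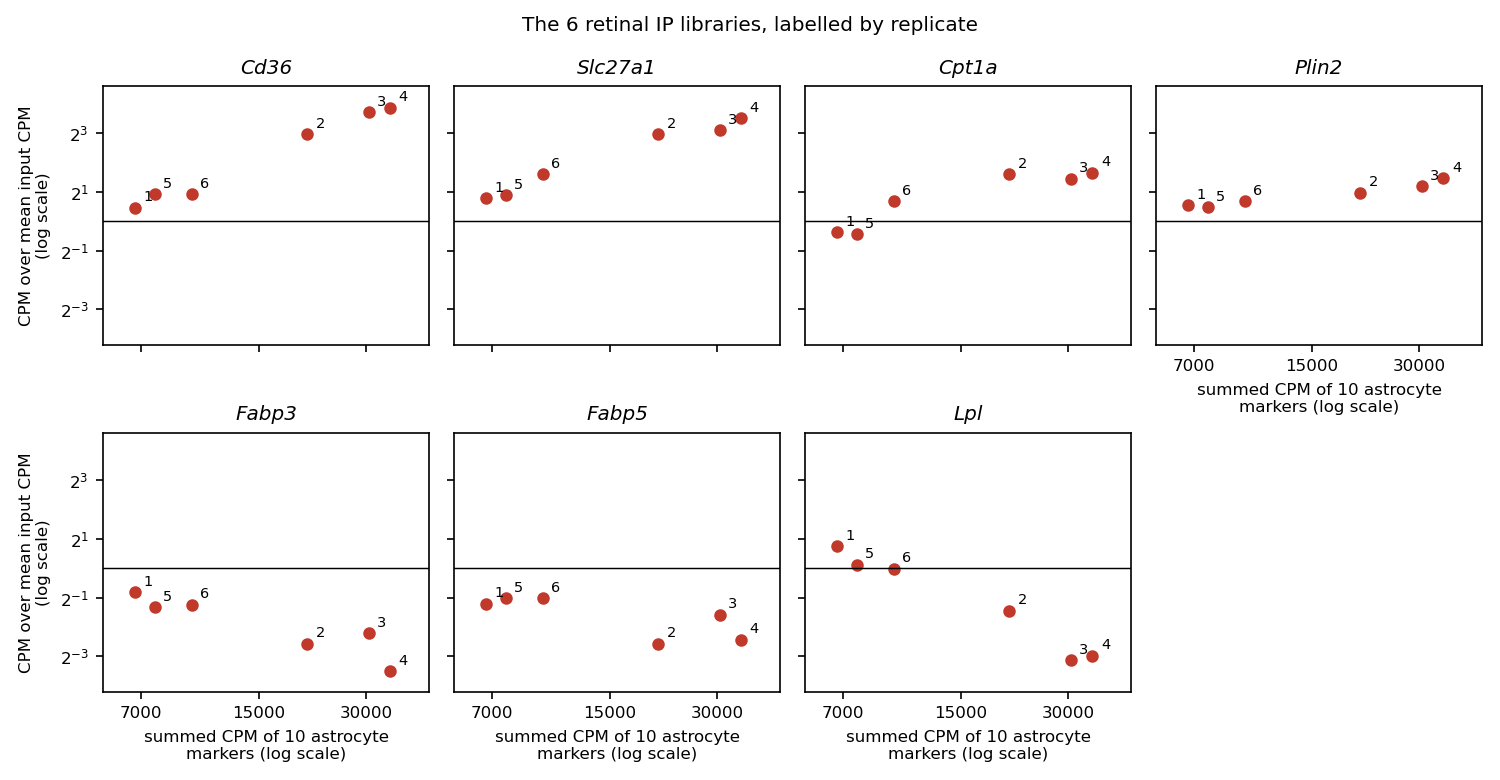
Ratio of each retinal IP library to the mean of the 6 input libraries (vertical axis, log scale) against its summed CPM of 10 astrocyte markers (horizontal axis, log scale), with points labelled by replicate. Cd36, Slc27a1, Cpt1a and Plin2 are highest and Lpl lowest in replicates 2, 3 and 4, which hold the most astrocyte marker RNA.

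Across the retinal IP libraries, Cd36, Slc27a1, Cpt1a and Plin2 tended to be high where astrocyte markers were high and Fabp3, Fabp5 and Lpl low there, while Fabp7 and Mfsd2a were too near the detection limit to place. Relative to the input mean, Cd36 was 7.85, 13.2 and 14.6 times as high in replicates 2, 3 and 4 and 1.38, 1.88 and 1.91 times in replicates 1, 5 and 6. For Lpl the same ratios were 0.367, 0.114 and 0.127 against 1.69, 1.09 and 0.989. For Fabp3 they were 0.169, 0.216 and 0.0889 against 0.569, 0.402 and 0.425. Taken against the mean of input replicates 3 to 6 the Fabp3 ratios were 0.392, 0.501 and 0.206 against 1.32, 0.931 and 0.985, so its standing below input in replicates 5 and 6 rests mostly, and in replicate 1 wholly, on input replicates 1 and 2. The summed level of 9 ganglion cell markers was 1940, 1460 and 870 CPM in replicates 2, 3 and 4 and 5050, 4700 and 4970 CPM in replicates 1, 5 and 6, beside 3720 to 8900 CPM in input. The sum of 6 Müller glia markers was 5890, 7180 and 6590 CPM in the first 3 and 2450, 2280 and 4010 CPM in the others, against 1300 to 5340 in input. The part of these cell types in the values of the 9 genes was not tested.

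CD36 is also made by vessel endothelium, macrophages, fat cells and the retinal pigment epithelium. The sum of 12 endothelial markers was 53.9 to 280 CPM in retinal IP and 81.5 to 268 CPM in input, and 5 of them, Pecam1, Cdh5, Tek, Tie1 and Emcn, averaged under 1 CPM in IP. Kdr and Flt1 had the highest means of the list in IP, 96.2 and 32 CPM, beside 65.5 and 36.8 CPM in input. The sum of 11 microglia and macrophage markers was 52.7 to 135 CPM in IP and 110 to 881 CPM in input, and 8 adipocyte markers summed to 4.79 to 9.52 CPM in IP with 3 at 0 in every IP library. Pigment epithelium markers summed to 14.3 to 26 CPM in IP and 14.7 to 161 CPM in input. The pericyte and smooth muscle list summed to 805, 695 and 834 CPM in IP replicates 2, 3 and 4, above the input range of 41.7 to 221 CPM, and to 121, 124 and 123 CPM in replicates 1, 5 and 6, within it. Most of that sum was Rgs5, which averaged 443 CPM in IP, while 5 of the 8 markers (Kcnj8, Abcc9, Notch3, Tagln and Myh11) averaged under 1 CPM. Of the 3 markers tested, 2 had positive fold changes, and no gene at all passed in edgeR in this comparison. The part of those cells in the Cd36 level was not tested.

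How the genes differ between astrocytes of the retina and of the nerve was asked in a fit of the 20 IP libraries with batch as a term. Against ONH, retinal IP was higher in Cd36, Fabp3 and Slc27a1 and lower in Fabp7, Mfsd2a, Plin2 and Cpt1a, 7 of 9 genes, where 33.8% of 16355 genes passed (12.7% higher, 21.1% lower). Against ONP, retinal IP was higher in Cd36 and Fabp3 and lower in Fabp7, Mfsd2a, Cpt1a and Fabp5, 6 of 9 genes, where 32.8% passed (12.9% higher, 19.9% lower). These comparisons share the 6 retinal libraries. Several of the calls rest on the bridging libraries, as given gene by gene.

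Cd36 had the widest range of the 9. It measured 34.3, 11.3, 29.2, 2.30, 0.351, 9.07 and 3.22 CPM in ONH replicates 1 to 7 and 1.30, 1.86, 0.779, 1.64, 0, 0.878 and 1.59 CPM in ONP, beside 198 to 2080 CPM in retinal IP. Each retinal library was above each nerve library, as for 8.77% of genes against ONH and 11.8% against ONP. The log2 fold change was 6.91 ± 1.85 against ONH (adjusted p = 0.00708) and 10.34 ± 2.04 against ONP (adjusted p = 0.000663), with ONP counts of 0 to 26 behind the second. Without ONH replicate 7 the first was 5.50 and no longer passed (adjusted p = 0.0947), and without either bridging library the second was still called, at 9.28 and 12.02. Within batch 2 alone, with 6 retinal libraries against 1 of each nerve region, the values were 8.44 (adjusted p = 0.0866) and 9.51 (adjusted p = 0.0491).

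Slc27a1 was abundant in all 3 regions, at 325, 224, 255, 312, 371, 265 and 130 CPM in ONH, 260, 192, 251, 283, 457, 373 and 169 CPM in ONP and 130 to 859 CPM in retinal IP. The 3 groups overlapped, and in each nerve region the bridging library was the lowest of the 7. The fitted log2 fold change was 1.62 ± 0.612 against ONH (adjusted p = 0.0474) and 1.51 ± 0.600 against ONP (adjusted p = 0.059), and without the batch term it was 0.72 (adjusted p = 0.12) and 0.63 (adjusted p = 0.167). The ONH call was lost in 15 of 20 fits that each left out 1 library (adjusted p up to 0.237) and held without ONH replicate 5, ONP replicate 2 or retinal IP replicate 1, 5 or 6. The ONP difference passed without ONP replicate 5 (adjusted p = 0.0487) or retinal IP replicate 1, 5 or 6 (adjusted p = 0.0213, 0.0225 and 0.0402).

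Lpl was low throughout the nerve, at 2.11 to 15.5 CPM in ONH (median 10.5) and 5.01 to 16 CPM in ONP (median 13.3), and overlapped with the 4.5 to 66.8 CPM of retinal IP. Its log2 fold changes of 1.53 ± 0.894 and 1.22 ± 0.855 did not pass (adjusted p = 0.192 and 0.292), although both did without the batch term, at 1.57 (adjusted p = 0.0154) and 1.26 (adjusted p = 0.045). Mfsd2a showed the reverse of Cd36. It measured 12.4 to 44.2 CPM in ONH (median 29.8) and 15.3 to 65.5 CPM in ONP (median 48.4), and no retinal IP library exceeded 1.69 CPM. The lowest value of each nerve region was that of its bridging library, and the other ONP libraries measured 41.5 to 65.5 CPM. The log2 fold change of retina was -3.41 ± 0.544 against ONH (adjusted p = 0.000105) and -4.16 ± 0.557 against ONP (adjusted p = 1.22e-05), called in all 20 fits with 1 library left out. In batch 2 alone it was -3.47 (adjusted p = 0.127) and -3.72 (adjusted p = 0.0698).

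The 3 binding proteins did not share an order. Group means of Fabp3 fell from retinal IP through ONH to ONP, while those of Fabp5 and Fabp7 rose. Fabp3 fell along the axon, from 18.4 to 118 CPM in retinal IP to 4.83 to 16.4 CPM in ONH (median 7.34) and 0.951 to 4.11 CPM in ONP (median 2.73), with no overlap between any 2 of these groups. Its log2 fold change in retina was 2.13 ± 0.584 against ONH (adjusted p = 0.00832) and 3.84 ± 0.651 against ONP (adjusted p = 0.000156). Leaving out ONH replicate 7 ended the ONH call (2.36, adjusted p = 0.0562), as did leaving out ONP replicate 7 (1.98, adjusted p = 0.0858), while the ONP call held in all 20 fits. In batch 2 alone the values were 2.12 (adjusted p = 0.265) and 4.18 (adjusted p = 0.0578).

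Fabp7 had the largest difference of the 3 between nerve and retina. It measured 42 to 81.3 CPM in ONH (median 58.1) and 38.8 to 129 CPM in ONP (median 69.2, the highest being the bridging library), and at most 6.51 CPM in retinal IP. The log2 fold change of retina was -4.87 ± 0.911 against ONH (adjusted p = 0.000465) and -5.17 ± 0.858 against ONP (adjusted p = 0.000124), called in all 20 fits in both cases. For Fabp7 and Mfsd2a alike, no retinal library overlapped with the nerve, as for 14.1% of genes lower against ONH and 16.5% against ONP. In batch 2 alone it was -3.91 (adjusted p = 0.218) and -5.47 (adjusted p = 0.0663). Fabp5 was the most even of the 3, at 90.1 to 212 CPM in ONH (median 103) and 93.1 to 219 CPM in ONP (median 184), against 34.5 to 100 CPM in retinal IP, with overlap in both cases. It was lower in retina than in ONP by the adjusted threshold (-1.11 ± 0.417, adjusted p = 0.0458), and the ONH difference did not pass (-0.74 ± 0.437, adjusted p = 0.199) except without the batch term (-0.79, adjusted p = 0.0265). The ONP call was lost in 13 of 20 fits (adjusted p up to 0.446) and held without ONH replicate 1 or 6, ONP replicate 4 or 5, or retinal IP replicate 1, 5 or 6.

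The droplet coat gene Plin2 measured 113 to 274 CPM in ONH (median 240), 70.2 to 160 CPM in ONP (median 101) and 36 to 70.8 CPM in retinal IP. No retinal library reached the ONH range, while the highest retinal and the lowest ONP library crossed. The log2 fold change was -1.40 ± 0.300 against ONH (adjusted p = 0.00145), called in all 20 fits. Against ONP it was -0.37 ± 0.305 (adjusted p = 0.374), or -1.06 without the batch term (adjusted p = 0.000835), and in batch 2 alone it was -1.02 against ONH (adjusted p = 0.216) and -0.35 against ONP (adjusted p = 0.633).

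Cpt1a measured 24, 29.5, 22.8, 35.6, 36, 33.6 and 88.7 CPM in ONH replicates 1 to 7 and 25.7 to 50.6 CPM in ONP (median 38.4), and overlapped with the 8.41 to 36.1 CPM of retinal IP. The highest ONH value was that of the bridging library. The fitted log2 fold change was -1.33 ± 0.472 against ONH (adjusted p = 0.035) and -1.45 ± 0.528 against ONP (adjusted p = 0.0402). Without ONH replicate 7 these were -0.03 (adjusted p = 0.984) and -0.40 (adjusted p = 0.643), so this library carries both. The ONH call was also lost without ONH replicate 3 or 4 or retinal IP replicate 1, 5 or 6 (adjusted p 0.0524 to 0.0702), and the ONP call was lost in 13 of 20 fits, holding without ONH replicate 5, ONP replicate 2, 3 or 7, or retinal IP replicate 2, 3 or 4. Without the batch term the values were -0.72 (adjusted p = 0.106) and -0.68 (adjusted p = 0.12).

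**Figure D3:**
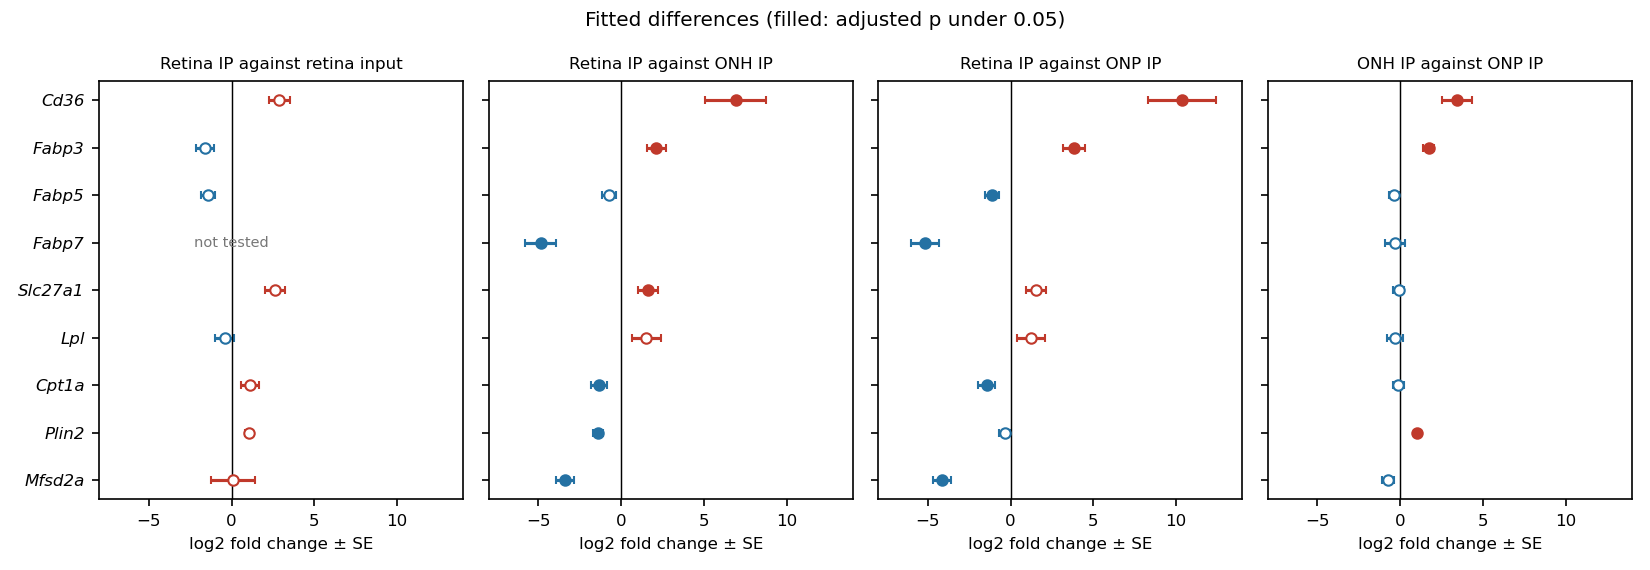
Fitted log2 fold change of each gene in the 4 comparisons (horizontal axis), with bars of 1 standard error; filled points have an edgeR adjusted p under 0.05, red is higher and blue lower in the group named first. Cd36 reaches 10.34 against ONP, and Fabp7 and Mfsd2a lie at -5.17 and -4.16 there.

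Without ONH replicate 7 the comparison with ONH kept 3 of the 7 calls, Fabp7 (-5.58, adjusted p = 0.0023), Plin2 (-1.65, adjusted p = 0.00844) and Mfsd2a (-3.09, adjusted p = 0.00747). In batch 2 alone, 0 of 9 genes passed against ONH and 1 against ONP. There each nerve region is 1 library, assumed to vary like the retinal ones, so the lost calls say little about stability. Every fold change of the 9 genes kept its sign. The main contrasts rest on the same retinal and bridging libraries, so that agreement is no separate support. The nerve libraries also carried RNA of other cells. The sum of 10 oligodendrocyte markers was 27700 to 73000 CPM in ONH and 36200 to 124000 CPM in ONP, against 50.6 to 158 CPM in retinal IP, and microglia and macrophage markers summed to 213 to 1900 CPM in ONH and 260 to 2650 CPM in ONP, against 52.7 to 135 CPM in retinal IP. Ganglion cell markers went the other way, summing to 870 to 5050 CPM in retinal IP, 20.7 to 241 CPM in ONH and 12.7 to 37.7 CPM in ONP, with 8 of 9 higher in retina against ONH and 9 of 9 against ONP. The summed astrocyte markers overlapped across the 3 regions, although single markers differed: of 10, 1 was higher and 3 lower in retina against ONH, and 1 higher and 4 lower against ONP. Aldoc led the sum in retinal IP, with a mean of 11900 CPM against 2230 in ONH and 2300 in ONP. Gfap led it in the nerve, with means of 11000 CPM in ONH and 14000 in ONP against 1700 in retinal IP. Similar sums thus do not show equal astrocyte content. The part of the other cell types in the levels of Cd36, Fabp3, Fabp7, Mfsd2a, Plin2 and the other genes was not tested.

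**Figure D4:**
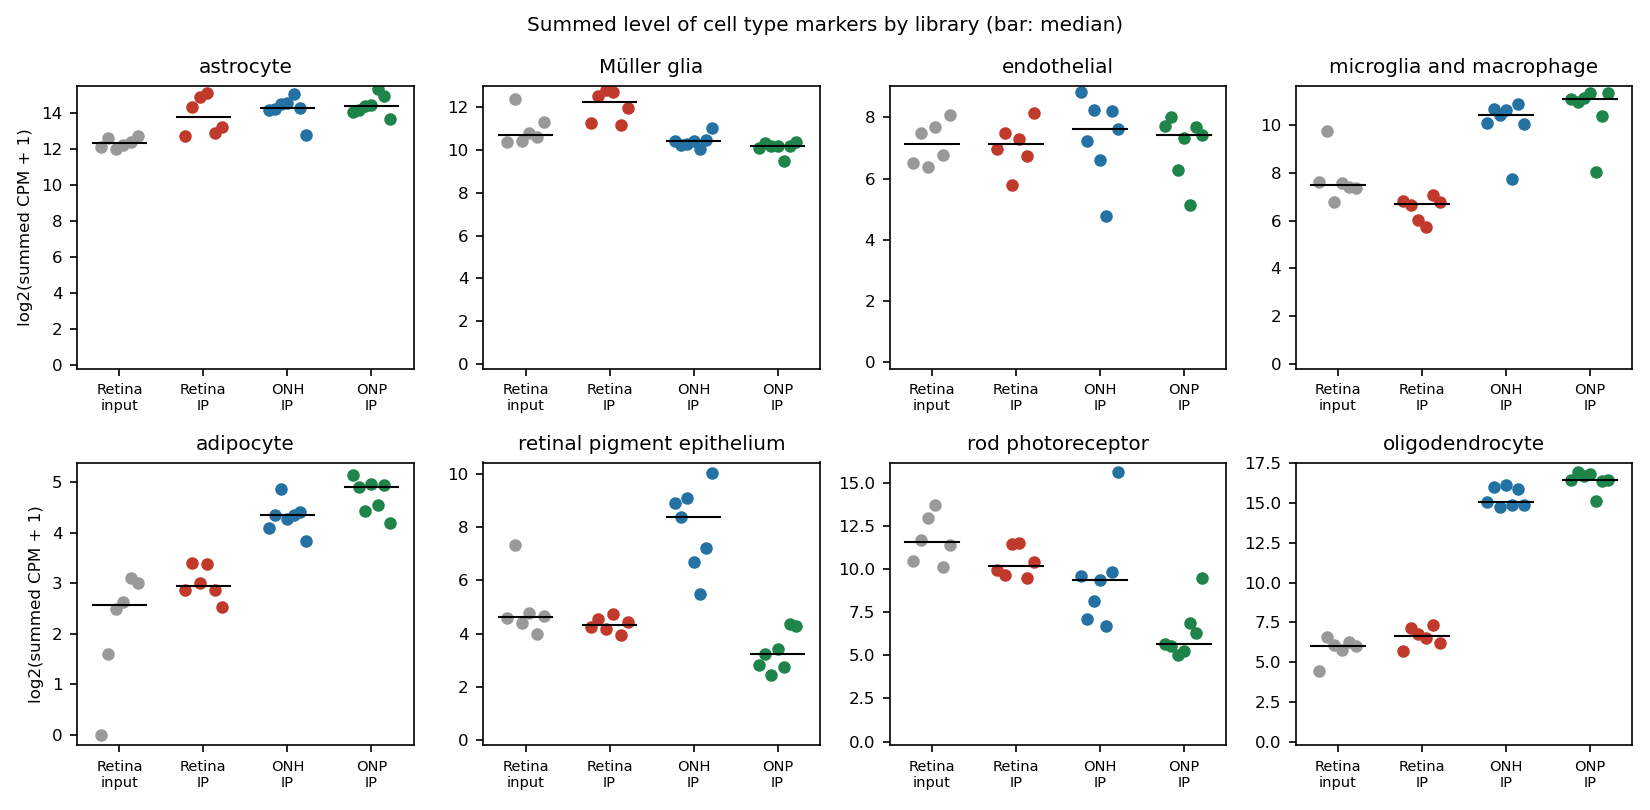
Summed CPM of marker genes of 8 cell types in each library, as log2(sum + 1) on the vertical axis, by group; bars are medians. Oligodendrocyte markers separate nerve from retina, pigment epithelium markers are higher in ONH than in ONP, and the highest rod value is ONH replicate 7 at 51200 CPM.

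Within the nerve, ONH was compared with ONP. The libraries of both carry the same replicate numbers, though the titles do not say that equal numbers mark a pair. Cd36, Fabp3 and Plin2 were higher in ONH, 3 of 9 genes and none lower, where 7.48% of 16355 genes passed (4.43% higher, 3.04% lower). In a fit of the nerve libraries only, Mfsd2a was also called, as lower in ONH (log2 fold change -0.74, adjusted p = 0.0368), and the number of genes called overall went from 1223 to 2294 (7.85% lower). Adding replicate as a block to the nerve libraries gave -0.82 for Mfsd2a (adjusted p = 0.0208) and 3118 genes in all (10% higher, 11.1% lower). The other 5 genes did not pass: Fabp5, Fabp7, Slc27a1, Lpl and Cpt1a had log2 fold changes of -0.37, -0.31, -0.10, -0.31 and -0.12.

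Plin2 was 218 ± 62.8 CPM (SD, n = 7) in ONH and 104 ± 32.4 CPM (SD, n = 7) in ONP, a log2 fold change of 1.03 ± 0.197 (adjusted p = 0.00424) that was called in all 20 fits with 1 library left out. Fabp3 was 8.34 ± 3.99 CPM in ONH and 2.46 ± 1.00 CPM in ONP (SD, n = 7 each). All 7 ONH libraries were above all 7 ONP libraries, as for 1.14% of genes, and the log2 fold change of 1.71 ± 0.344 (adjusted p = 0.00598) was called in all 20 fits, though not by limma-voom (1.73, adjusted p = 0.113). The Plin2 groups overlapped through ONH replicates 4 and 7. Mfsd2a was 26.7 ± 12.3 CPM in ONH and 45.8 ± 15.4 CPM in ONP (SD, n = 7 each), and the fit of all 20 IP libraries gave -0.75 ± 0.361 (adjusted p = 0.221), passing without retinal IP replicate 3 (adjusted p = 0.0438). In batch 1 alone, with 6 libraries a group, it was -0.82 (adjusted p = 0.0352), where 8.01% of genes were lower.

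Cd36 was 12.8 ± 13.6 CPM in ONH and 1.15 ± 0.645 CPM in ONP (SD, n = 7 each), and ONH replicates 1 and 3 were the highest. The groups overlapped through ONH replicate 5. The log2 fold change of 3.43 ± 0.884 (adjusted p = 0.024) no longer passed in 3 fits, those lacking ONH replicate 1 (3.00, adjusted p = 0.0576), ONH replicate 3 (3.10, adjusted p = 0.0592) and ONP replicate 6 (3.36, adjusted p = 0.0515), and limma-voom did not call it (3.41, adjusted p = 0.219). Of the markers of other cells that make CD36, 7 of 8 for pigment epithelium passed as higher in ONH and 0 of 12 for endothelium did. Of those 12 endothelial markers, 9 had positive fold changes, with a median of 0.39 beside 0.02 for all genes. None of 11 microglia and macrophage markers passed and all 11 had negative fold changes, and the 1 adipocyte marker tested was lower in ONH. The sum of the pigment epithelium list was 480, 338, 552, 103, 44.3, 147 and 1070 CPM in ONH replicates 1 to 7 and 4.45 to 19.4 CPM in ONP, and that of the endothelial list was 450, 147, 300, 95.5, 26.6, 293 and 194 CPM in ONH and 33.8 to 255 CPM in ONP. Their part in the Cd36 difference was not tested.

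Compared per kilobase of exon, the leading genes of the set changed from place to place. In retinal IP the mean CPM per kilobase was 270 for Cd36, 78.3 for Fabp3, 74.2 for Slc27a1, 20.1 for Fabp5, 14 for Plin2, 3.02 for Cpt1a, 2.76 for Lpl, 1.93 for Fabp7 and 0.438 for Mfsd2a. The Cd36 mean was carried by replicates 2, 3 and 4, at 313, 525 and 579, while in replicates 1, 5 and 6 Cd36 stood at 55.1, 74.7 and 75.9 and Fabp3 led at 143, 101 and 107. In ONH it was highest for Plin2 at 62.1, followed by Fabp7 at 47.0, Slc27a1 at 46.1 and Fabp5 at 35.6. In ONP it was highest for Fabp7 at 59.8, followed by Slc27a1 at 48.7, Fabp5 at 46.0, Plin2 at 29.6 and Mfsd2a at 20.4, and lowest for Cd36 at 0.320. In the nerve the leading gene also differed between libraries of a region. In retinal input Fabp3 led in all 6 libraries, with a mean of 252, before Fabp5 at 57.2 and Cd36 at 39.8. Over input replicates 3 to 6 the means were 108 for Fabp3, 46.2 for Cd36 and 31.7 for Fabp5, so the order of Cd36 and Fabp5 turned. Lengths are unions of annotated exons, which can exceed the transcript present, so near values such as those of Fabp7 and Slc27a1 in ONH are not an order. The union was 823 bases for Fabp3, 3567 for Fabp5 and 3590 for Cd36, so the lead of Fabp3 rests largely on these lengths. Before division by length, Fabp3 and Fabp5 averaged 207 and 204 CPM in input. Cd36 then measured 198, 268 and 272 CPM in IP replicates 1, 5 and 6, and Fabp3 118, 83.1 and 87.9. Fabp5 averaged 127 and 164 CPM in ONH and ONP, and Fabp7 58.7 and 74.7.

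Copies and neighbours could take reads from 2 of the genes. Fabp3 shares exons with Zcchc17 on the opposite strand, which reached 357 CPM, and whether the counting used strand is not given in the sources used here. Its pseudogene Fabp3-ps1 collected 423 counts over all 26 libraries, and Fabp5l2, a copy of Fabp5, collected 30. In the annotation Cd36 lies at chr5:17781690-17888801, Fabp3 at chr4:130308595-130315463, Fabp7 at chr10:57784881-57788450, Plin2 at chr4:86648386-86670060 and Mfsd2a at chr4:122946850-122961188 (GENCODE M21, GRCm38). Fabp5 lies at chr3:10012548-10016607, Slc27a1 at chr8:71568882-71587302, Lpl at chr8:68880491-68907448 and Cpt1a at chr19:3322334-3385733.

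The other genes of the pathway were taken as 10 lists with 158 entries. In retinal IP against input no gene of any list passed in edgeR, as none of all genes did. The median log2 fold change was 0.98 for partners of lipoprotein lipase and lipoprotein uptake (12 tested), 0.81 for droplet coat, storage and lipolysis (17 tested), 0.75 for peroxisomal oxidation (10 tested, all positive), 0.71 for the carnitine shuttle and mitochondrial beta oxidation (21 tested, 18 positive) and -0.83 for the other cytosolic binding proteins (7 tested). The median of all genes tested was 0.02. In the comparisons between retina and nerve, many list calls rest on single libraries: of the genes the naming rule picked, 3 of 11 higher and 10 of 22 lower against ONH, and 0 of 11 higher and 11 of 26 lower against ONP, were called in every fit with 1 library left out. The genes named as passing in the lists are taken from these. Of all genes tested, 12.7% were higher and 21.1% lower against ONH, and 12.9% higher and 19.9% lower against ONP. The list counts that follow stand beside these shares.

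Between retina and nerve, 4 of 8 ketone body genes tested were lower in retina against ONH and 4 of 8 against ONP, and none higher, with medians of -0.57 and -0.68 beside -0.13 and -0.10 for all genes. Slc16a1, a monocarboxylate transporter, measured 40.7 to 103 CPM in retinal IP and 426 to 923 CPM in ONH and 415 to 1040 CPM in ONP (-2.66 and -2.75, adjusted p = 2e-05 and 1e-05). The retinal libraries did not overlap with those of the nerve, and both calls held in all 20 fits.

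Acyl-CoA synthetases activate fatty acids and thioesterases release them again. Of 14 such genes tested, 2 were higher, both thioesterases (Acot11 and Acot7), and 2 lower in retina against ONH, and 3 higher and 5 lower against ONP. Acsbg1, the synthetase of the bubblegum family, measured at most 5.48 CPM in retinal IP, 81.1 to 382 CPM in ONH and 137 to 695 CPM in ONP. Its log2 fold changes of -6.08 and -6.99 (adjusted p = 0.000117 and 2.78e-05) exceeded those of Fabp7 in the same comparisons. Acot11, a thioesterase, was higher in retina than in ONH (2.81, adjusted p = 0.00261) with overlapping libraries.

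Of 7 other binding proteins tested, 3 were lower in retina than in ONH and none higher, with a median of -2.50 beside -0.13 for all genes. Against ONP 1 was higher and 2 lower, with a median of -0.12 beside -0.10. Against ONH, the Fabp12 call was lost without ONH replicate 7 (-3.39, adjusted p = 0.155) and the Dbi call without ONP replicate 7 (-1.69, adjusted p = 0.0876). Fabp4 and Pmp2, the adipocyte and myelin binding proteins, did not pass the low-count filter.

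Among 13 partners of lipoprotein lipase and lipoprotein receptors tested, 5 were lower in retina than in ONH and 4 lower than in ONP, and none higher. Of all genes, 21.1% and 19.9% were lower in these comparisons. Lrp8, a receptor for apolipoprotein E and reelin, measured 5.53 to 13.3 CPM in retinal IP and 32.2 to 56.9 CPM in ONH (-1.70, adjusted p = 0.00278). Vldlr measured 16 to 53.9 CPM in retinal IP and 81.8 to 150 CPM in ONP (-1.98, adjusted p = 0.000236). Gpihbp1, the endothelial anchor of the lipase, was at 0 in every retinal IP library and was not tested.

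Of 19 genes tested for fatty acid synthesis and desaturation, retinal IP had 4 above and 4 below ONH, and 1 above and 7 below ONP, by the test. Elovl7, an elongase, measured at most 6.46 CPM in retinal IP and 32.5 to 109 CPM in ONH and 58.1 to 255 CPM in ONP (-3.94 and -5.21, adjusted p = 0.000373 and 1.88e-05). Hacd3, an elongation cycle dehydratase, was higher in retina, at 374 to 631 CPM against 129 to 206 CPM in ONH (1.63, adjusted p = 0.000385). In ONH against ONP this list had 5 genes lower and none higher of 19, where 3.04% of all genes were lower. Its median was -0.70 beside 0.02 for all genes. Of the 5 lower genes, Scd2 was called in 11, Elovl5 in 7 and Elovl6 in 15 of 20 fits with 1 library left out, and of the pathway genes the naming rule picked in this comparison, 2 of 6 higher and 4 of 12 lower were called in every such fit. All 10 oligodendrocyte markers had negative fold changes here, with a median of -1.01 and 2 called lower, and their part in the synthesis genes was not tested.

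The shares of all genes called, 33.8% against ONH and 32.8% against ONP, stand beside the counts of the droplet and oxidation lists. Of 19 droplet genes tested, retinal IP had 1 above and 2 below ONH, and 2 above and 4 below ONP, by the test. Plin4, a relative of Plin2, measured 0 to 0.173 CPM in retinal IP and 2.89 to 8.21 CPM in ONP (-7.24, adjusted p = 2.2e-06). Of 21 carnitine shuttle and beta oxidation genes tested, 2 were higher and 4 lower against ONH, and 2 higher and 3 lower against ONP. Cpt1c, the neuronal relative of Cpt1a, was higher in retina than in ONH (1.33, adjusted p = 0.00126), and Cpt1b, the muscle form, was not tested. Of 10 peroxisomal genes tested, 1 was higher and 1 lower against ONH, and 1 higher and 2 lower against ONP. The sorting receptor Sort1, in the lipase list, was lower in retina than in ONP (-2.10, adjusted p = 4.68e-05).

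The 16 regulators tested included 1 higher and 5 lower in retina against ONH, and 6 lower against ONP. Nr2f2, an orphan nuclear receptor, measured 6.21 to 10.4 CPM in retinal IP, 47.9 to 63.1 CPM in ONH and 20.2 to 41.5 CPM in ONP. No libraries overlapped between these 3 groups, with log2 fold changes of -2.58 and -1.78 in retina (adjusted p = 5.69e-08 and 5.12e-06) and 0.79 in ONH against ONP (adjusted p = 0.00386). Of 10 other membrane uptake genes tested, 1 was higher and 2 lower against ONH, and 1 higher and 1 lower against ONP. Spns2, a sphingosine phosphate exporter, was lower in retina, with log2 fold changes of -2.33 and -3.13 (adjusted p = 0.00164 and 4.16e-05). Slc27a4, a relative of Slc27a1, averaged 54.5 CPM in retinal IP and 56.3 CPM in ONH and did not pass.

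**Figure D5:**
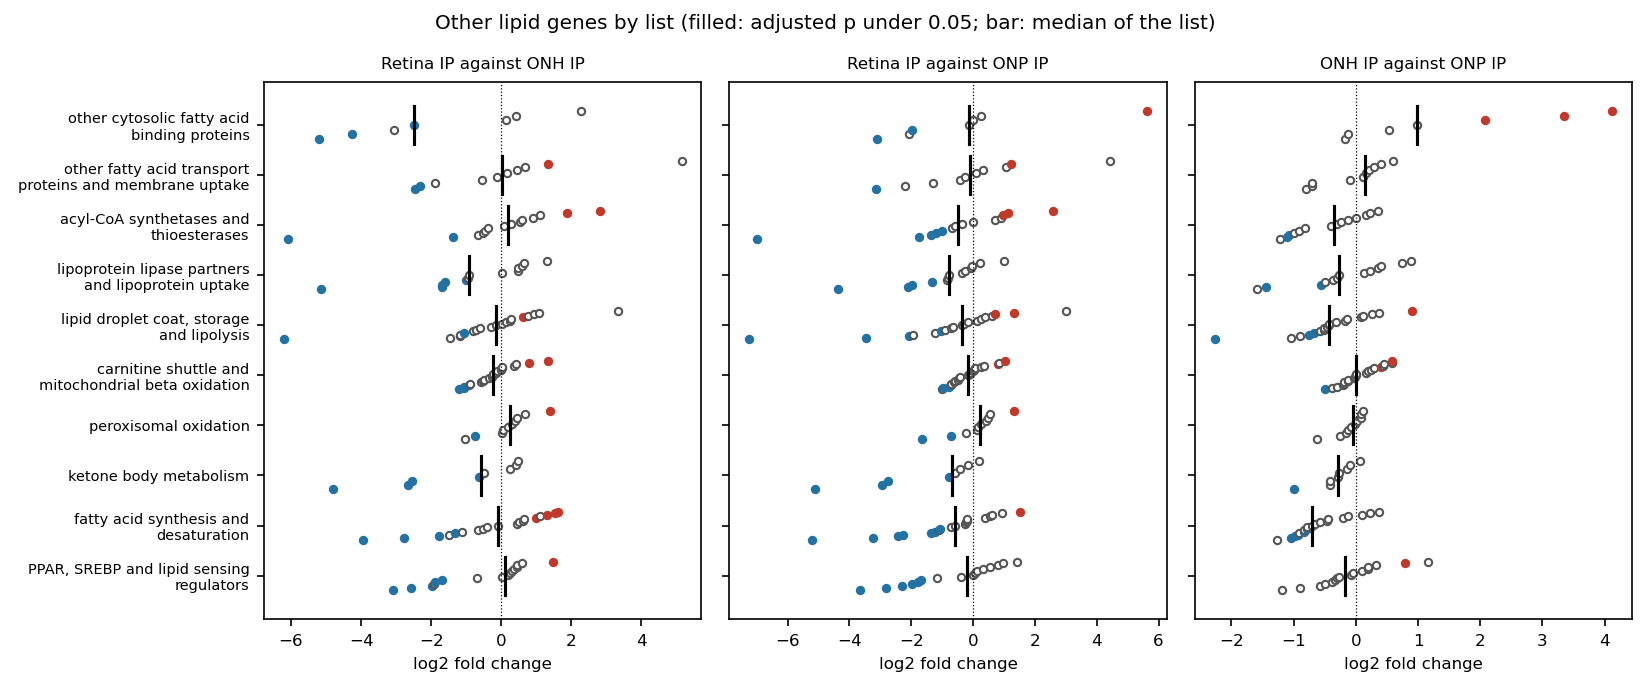
Log2 fold change of each tested gene in 10 lipid lists (horizontal axis) for the 3 comparisons among IP libraries; filled points have an edgeR adjusted p under 0.05, red is higher and blue lower in the group named first, and bars are list medians. In the comparisons of retina with nerve, ketone body genes passed only as lower in retina, and the synthesis list lies left of 0 in ONH against ONP with a median of -0.70.

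Genes with the most similar pattern were read from the Pearson correlation of log2(CPM + 1) over the 26 libraries among 11206 genes, as a description. Pax8, a paired box transcription factor, came first for Cd36 (r = 0.98), followed by Shisa2 and Tbx3 (r = 0.95 each). Pax8 measured 30.2, 253, 310, 377, 42.6 and 42.4 CPM in retinal IP replicates 1 to 6, with the same 3 libraries high, and at most 10.5 CPM in ONH and 4.40 CPM in ONP. For Mfsd2a the nearest gene was Pllp, a myelin protein gene (r = 0.97), at 30.5 to 79.6 CPM in ONH, 59.6 to 126 CPM in ONP and at most 0.346 CPM in retinal IP. The nearest gene was Serp2 for Fabp3 (r = 0.98), Tmem141 for Fabp5 (r = 0.91), Sh3glb1 for Fabp7 (r = 0.97), Fam234a for Slc27a1 (r = 0.96), Cd200 for Lpl (r = 0.91), Klhl36 for Cpt1a (r = 0.93) and Ccnd3 for Plin2 (r = 0.97). Libraries of a group share region and, for the most part, batch, and for 4 of the 9 genes a rank correlation gave 3 other nearest genes.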

How the data were processed

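Poly(A) RNA of 26 libraries was amplified with a Smart-Seq HT kit made for very small inputs, per the labels' protocols. The deposited values are estimated counts per Ensembl gene from Salmon 1.6.0 against mm10, per the submitters' processing notes, already as whole numbers. The annotation and strand setting are not given in the sources used here. Symbols matched 54409 of 54532 genes. Levels are TMM-scaled CPM.

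Comparisons used the quasi-likelihood F test of edgeR 4.0.16 (limma 3.58.1, R 4.3.3) with TMM, filterByExpr (minimum count 10, minimum total 15) and Benjamini-Hochberg adjustment over all genes tested, called under 0.05. Retinal IP against input used 12 libraries, and the region contrasts used 20 IP libraries with batch as a term. Standard errors are the log2 fold change over the square root of F. DESeq2 1.42.0, limma-voom, other scalings, filters, sample sets and single-library omissions were alternatives, and the tests were tried on simulated data. ONH and ONP libraries of equal number deviated together in all 7 pairs (r 0.12 to 0.54), so a fit with replicate as a block stands beside that comparison. No libraries of a group agreed within sampling noise (chi-square per degree of freedom at least 15.9).

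The 9 genes and all lists were chosen with earlier results of these data known. From each list up to 3 genes a direction were picked by size of change, with at least 5 CPM in the higher group and non-overlapping genes first. Promoters are from RefSeq (GRCm38.p6) and positions from GENCODE M21.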

Additional observations from a re-analysis of the deposited data

Results flagged for a closer look

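Among 36 sets of a gene in a group, 2 held a library far from the others, and chance flags about 1 in 20 such sets. Cpt1a measured 88.7 CPM in ONH replicate 7, the bridging library with the high rod marker sum, and at most 36 CPM in the other 6 ONH libraries. Mfsd2a measured 5.21 CPM in retinal input replicate 1, and the next input library measured 1.03 CPM. The cause was not tested for either.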

How the results depend on the processing

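For retinal IP against input, edgeR called 0 genes, against 193 with no low-count filter, 2072 with DESeq2, 2871 with all 26 libraries in 1 fit, 49 without input replicates 1 and 2, and 0 to 381 with 1 library left out. Of the 9 genes it called 0, against 2 with no filter, 5 with DESeq2, 5 with all 26 libraries, and 0 to 3 with 1 library left out. For retina against ONH the count of 5532 became 3596 with all 26 libraries, 8465 without the batch term, 2069 with only the groups compared, 818 in batch 2 alone, 9454 with the replicate block in place of batch, and 2984 to 6027 with 1 library left out. Of the 9 genes, 7 were called, against 4 with only the groups compared, 0 in batch 2 alone and 3 to 7 with 1 library left out. For retina against ONP the count of 5371 became 8851 without the batch term, 1690 in batch 2 alone, 9699 with the replicate block in place of batch and 2155 to 5741 with 1 library left out. Of the 9 genes, 6 were called, against 1 in batch 2 alone and 4 to 6 with 1 library left out. For ONH against ONP the count of 1223 became 2041 with DESeq2, 511 with all 26 libraries, 2294 with only the groups compared, 2445 in batch 1 alone, 3118 with the replicate block and 601 to 1566 with 1 library left out. Of the 9 genes, 3 were called, against 1 with limma-voom and 2 to 4 with 1 library left out. Leaving out ONP replicate 7 gave the lowest counts for both retina and nerve comparisons, and ONH replicate 1 for ONH against ONP. Apart from the fits that use fewer libraries or genes, the cause was not tested.

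Directions turned for Mfsd2a in retinal IP against input (-0.08 with RLE size factors, -0.09 with DESeq2, -0.04 with all 26 libraries, -0.29 to 2.30 with 1 library left out), for Cpt1a in ONH against ONP without the batch term (0.03), and for Slc27a1 there without ONP replicate 5 (0.04, range -0.19 to 0.04). With the replicate block in place of batch, Fabp12 (2.17), Elovl2 (1.75) and Acad9 (-0.11) turned against ONH and Acad9 (-0.10) against ONP, where it also turned without the batch term (-0.01). Elovl2 ranged from -3.76 to 2.67 against ONH with 1 library left out, the latter without ONH replicate 7. All 36 group levels moved by less than 1 SD when scaled to plain totals.

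The check did not settle whether equal numbers pair retinal IP with input (r -0.16 to 0.29 in 6 pairs, 4 over 0.1 and 4 best with their own number). They met no pairing rule for retina with ONH (-0.20 to 0.18) or ONP (-0.08 to 0.07). With a replicate block, retinal IP against input still had 0 genes called, and the log2 fold change of Cd36 was 2.44 (adjusted p = 0.172). In ONH against ONP, fits of the nerve libraries only called the same 4 of the 9 genes without and with the block (Cd36, Fabp3, Plin2 and Mfsd2a), so the block itself changed no call there.

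Fabp7 and Mfsd2a in retina and Cd36 in ONP rest on few counts. Input exists here for retina only, so enrichment in the nerve was not measured, and retina and nerve are linked across batches by 2 libraries.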
